A study of Mus musculus with 9 samples.

Results

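The suppressors of cytokine signaling (SOCS) are intracellular proteins that switch off signaling from cytokine and hormone receptors. Their expression was measured here in laser-captured mediobasal hypothalamus. Of the 7 genes in the set (Socs2, Socs3, Socs4, Socs5, Socs6, Socs7 and Cish), 6 had an entry among the 13588 entries of the expression table. They were found by the Ensembl gene that carries each symbol. Cish was not analysed here. The question was whether Socs3 moved alone or together with the rest of its family.

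All 9 mice were males with the strain label C57/BL6, homozygous for the floxed Snord116 allele of the line B6(Cg)-Snord116tm1Uta/J, in the AAV-GFP controls as well as in the AAV-Cre mice. An adeno-associated virus (AAV) expressing Cre, which deletes the floxed Snord116 cluster, or GFP was injected stereotaxically into adult mice, and brains were frozen 10 weeks later. Each library came from the captured tissue of 1 mouse, taken where Cre protein was stained in neighbouring sections or, in AAV-GFP mice, in the matching region. Groups were 3 AAV-GFP mice, 3 AAV-Cre mice with the weight label obese and 3 with the weight label nonobese. The sample titles of the AAV-Cre mice name the subsets the other way round. Each subset is therefore called "labelled obese" or "labelled nonobese", and no direction with body weight is drawn from these names here. Libraries held 3929672 to 5766994 reads, with a median of 4611358. Values are signal, a read count that the authors divided by the library's scaled size so that libraries compare, and 3 reads correspond to a signal of 0.525 to 0.786.

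Cre reads numbered 5912, 37704 and 1011 in the mice labelled obese and 19611 to 33105 in those labelled nonobese, against 0 to 5 in AAV-GFP mice. None of the 17 Snord116 genes in the annotation had an entry (0 of 17), so the deletion itself is not visible in these values. The 7 neuronal markers summed to a signal of 3451 and 3250 in replicates 1 and 3 labelled obese, and to 4065 to 5409 in the other 7 libraries. Replicates 1 and 3 labelled obese stood apart from the other 7 libraries. Their summed signal of 11 interferon response genes was 2481 and 1889, against 49.3 to 159 elsewhere, and the same genes summed to 100.3 in replicate 2 labelled obese. Plasma and B cell markers summed to 4839 and 9086 in those 2 libraries, 158 in replicate 2 labelled obese, 42.2 to 117 in mice labelled nonobese and 2.33 to 7.47 in AAV-GFP mice. Agrp, a neuropeptide gene of the arcuate nucleus, was at 0 reads in those same 2 libraries, as was Nr5a1, a marker of the ventromedial nucleus that was also at 0 in 2 other libraries.

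A cytokine that binds its receptor activates Janus kinases (JAKs), which phosphorylate STAT transcription factors. STATs enter the nucleus and induce target genes, Socs3 and Cish among them, and the SOCS proteins then bind the receptor or the kinase through their SH2 domain. A second domain, the SOCS box, recruits Elongin B, Elongin C and Cullin 5, a ubiquitin ligase that marks bound proteins for degradation. In the hypothalamus Socs3 is known as the inhibitor of the leptin receptor and of gp130, the shared receptor chain of the interleukin 6 cytokines. Socs2 is best known as the inhibitor of growth hormone signaling, whereas Socs6 and Socs7 are linked to insulin receptor signaling.

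Because STATs bind a palindrome spelled TTCNNNGAA, promoter windows were searched for it on both strands. RefSeq windows on GRCm38.p6, from 250 bases before to 50 bases after the start of transcription, were at hand for 2 of the 6 members, Socs3 and Socs4. They are shown together with that of Irf1, a STAT target described below, since Socs3 and Irf1 each hold the motif and differed in which mice were high, a choice made after their values were seen. Capitals mark the match, and each sequence is given 5′ to 3′ on the strand of the gene.
Socs3, chr11:117969317-117969616, minus strand: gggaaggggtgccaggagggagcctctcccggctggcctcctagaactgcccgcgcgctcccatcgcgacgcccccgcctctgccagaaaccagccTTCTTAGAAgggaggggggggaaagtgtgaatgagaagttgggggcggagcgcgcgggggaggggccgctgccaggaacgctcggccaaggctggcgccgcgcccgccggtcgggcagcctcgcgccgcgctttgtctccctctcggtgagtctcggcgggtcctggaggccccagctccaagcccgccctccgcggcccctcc
Irf1, chr11:53769764-53770063, plus strand: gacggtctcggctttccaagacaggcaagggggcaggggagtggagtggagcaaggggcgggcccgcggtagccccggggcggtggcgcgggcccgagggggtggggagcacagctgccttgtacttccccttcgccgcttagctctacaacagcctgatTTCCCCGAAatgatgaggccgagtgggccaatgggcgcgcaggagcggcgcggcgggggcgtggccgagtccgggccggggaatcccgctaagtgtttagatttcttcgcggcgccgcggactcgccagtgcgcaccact
Socs4, chr14:47276670-47276969, plus strand: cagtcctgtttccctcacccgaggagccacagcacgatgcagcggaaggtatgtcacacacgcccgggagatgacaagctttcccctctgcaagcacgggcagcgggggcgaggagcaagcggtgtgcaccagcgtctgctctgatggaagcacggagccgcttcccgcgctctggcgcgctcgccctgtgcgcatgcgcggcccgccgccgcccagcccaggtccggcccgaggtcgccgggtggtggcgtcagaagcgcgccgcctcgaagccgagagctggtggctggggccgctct

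In Socs3 the match was TTCTTAGAA, which began 154 bases before the start, and in Irf1 it was TTCCCCGAA, which began 90 bases before it. The Socs4 window held no TTCNNNGAA. The 13 windows searched were of 2 members and of 8 other genes named below, some with more than 1 window. The motif was in 4 of the 13 windows, 1 each of Socs3, Irf1, Gfap and Prlr. It was in none of Serpina3n, Stat3, Ptpn6, Csf2ra and Vim. The motif was present in 8.29% of 32817 RefSeq promoter windows of this length. The core of the interferon-stimulated response element was in none of the 3 windows shown and in 3.43% of all windows. A window for a second annotated Irf1 start held neither motif. A match is a spelling in the window and does not show that a factor was bound.

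Socs3 (ENSMUSG00000053113, GRCm38 chr11:117966079-117970047, minus strand) was the member with the widest spread across mice. Its signal was 30.1, 20.4 and 3.95 in replicates 1, 2 and 3 labelled obese. The mice labelled nonobese had 4.90, 7.07 and 3.20. The AAV-GFP mice had 3.99, 0.766 and 1.75. Replicates 1 and 2 labelled obese were thus above every other mouse, whereas replicate 3 labelled obese lay just below the highest AAV-GFP mouse, so the groups overlapped. These values rest on few molecules in the controls. The 4 reads of AAV-GFP replicate 2 have an exact Poisson 95% interval of 1.09 to 10.2 reads, and the 134 reads of replicate 1 labelled obese one of 112 to 159. Such intervals cover counting error only.

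The log2 fold change (log2 FC, on log2 of signal + 1, which understates changes at low signal) of Socs3 in mice labelled obese against AAV-GFP mice was 2.36 (95% interval 0.74 to 3.99). It had a false discovery rate (FDR) of 0.254 in limma, which did not pass the threshold of 0.1, and an unadjusted limma p of 0.00623. An exact permutation test over mice gave p = 0.2 (2-sided, n = 3 against 3, smallest possible 0.1). The tests on recovered reads differed. The likelihood ratio test of edgeR gave a log2 FC of 3.07 with an FDR of 0.0508, DESeq2 gave 3.11 with an FDR of 0.0312, and the edgeR quasi-likelihood test gave an FDR of 0.226. Of all entries tested, 1.12% had a larger log2 FC than Socs3 in this comparison by limma. For the mice labelled nonobese the Socs3 log2 FC against AAV-GFP was 1.02 (95% interval -0.61 to 2.64, limma FDR = 0.999).

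**Figure D1:**
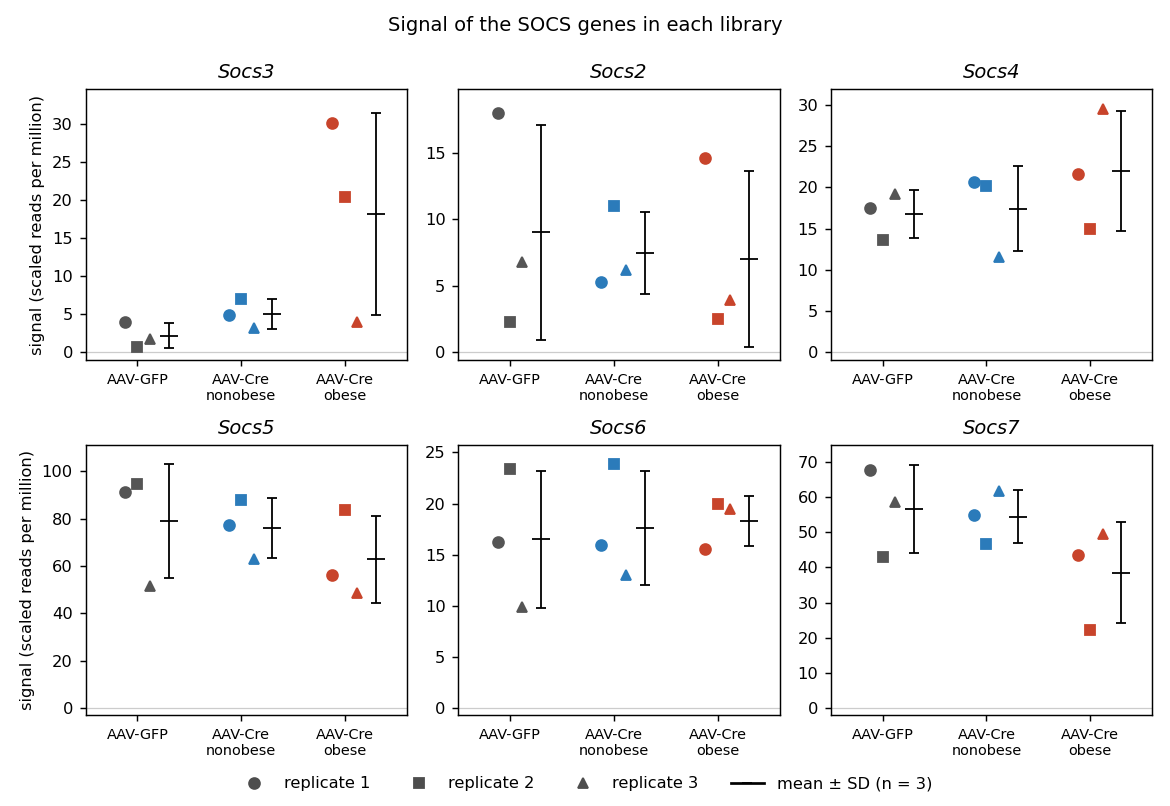
Signal (vertical axis, scaled reads, linear) of the 6 SOCS genes in each of the 9 libraries, by group. Symbols give the replicate, and the bar is the mean ± SD of 3 mice. Socs3 is high in replicates 1 and 2 labelled obese, at 30.1 and 20.4, and at 3.95 in replicate 3, whereas the groups of the other 5 genes lie in the same range.

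Socs2 (ENSMUSG00000020027, chr10:95385362-95417180, minus strand) was the other member with a wide spread. Its signal was 18.0, 2.30 and 6.80 in AAV-GFP mice and 14.6, 2.50 and 3.95 in mice labelled obese. The mice labelled nonobese had 5.25, 11 and 6.19. The highest and the lowest mouse were both AAV-GFP controls. The log2 FC was -0.28 in mice labelled obese against AAV-GFP (95% interval -1.87 to 1.30, limma FDR = 0.935) and 0.05 in mice labelled nonobese. The interval is wide enough to include changes over 2-fold in either direction. The coefficient of variation over the 9 libraries was 118% for Socs3 and 70.3% for Socs2, compared with 24.8% to 28.3% for the other 4 members.

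Socs4 and Socs5 are closely related members with a long N-terminal region, and Socs5 is known to act on interleukin 4 and epidermal growth factor receptor signaling. Socs4 (ENSMUSG00000048379, chr14:47276931-47296102, plus strand) had a signal of 17.5, 13.6 and 19.2 in the AAV-GFP group, 21.6, 15.0 and 29.5 in the group labelled obese and 20.6, 20.2 and 11.5 in the group labelled nonobese. Its highest value was in replicate 3 labelled obese, the mouse of that group in which Socs3 was low. The log2 FC in mice labelled obese against AAV-GFP was 0.34 (95% interval -0.61 to 1.28, limma FDR = 0.859). Socs5 (ENSMUSG00000037104, chr17:87107679-87137839, plus strand) had 91.3, 94.6 and 51.5 in the AAV-GFP group, 56.2, 83.5 and 48.6 in the group labelled obese and 77.5, 88.0 and 63.0 in the group labelled nonobese. The AAV-GFP mice alone spanned nearly the whole range of Socs5. Its log2 FC in mice labelled obese was -0.32 (95% interval -0.89 to 0.26, limma FDR = 0.759). Both estimates changed sign when replicates 1 and 3 labelled obese were left out together, to -0.14 for Socs4 and 0.13 for Socs5.

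Socs6 (ENSMUSG00000056153, chr18:88665224-88927481, minus strand) had a signal of 16.2, 23.4 and 9.90 in the AAV-GFP group, 15.5, 19.97 and 19.5 in the group labelled obese and 15.9, 23.8 and 13.0 in the group labelled nonobese. The control values enclosed all 3 mice labelled obese. The Socs6 log2 FC was 0.21 in mice labelled obese (95% interval -0.77 to 1.19, limma FDR = 0.922) and 0.12 in mice labelled nonobese. Socs7 (ENSMUSG00000038485, chr11:97362551-97398542, plus strand) had 67.8, 43.1 and 58.7 in the AAV-GFP group, 43.6, 22.2 and 49.5 in the group labelled obese and 54.9, 46.6 and 61.7 in the group labelled nonobese. Replicate 2 labelled obese, in which Socs3 was high, had the lowest Socs7 signal of the 9 mice. The Socs7 log2 FC in mice labelled obese was -0.60 (95% interval -1.25 to 0.06), with an unadjusted limma p of 0.0736 and an FDR of 0.552. The corresponding value with the label nonobese was -0.04.

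Across the family, 0 of 6 members passed an FDR of 0.1 in limma in mice labelled obese against AAV-GFP, where 0.555% of 13506 tested entries did. At an unadjusted limma p under 0.05 there was 1 of 6, Socs3, against 9.88% of all entries. The likelihood ratio test called 1 of 6, again Socs3, against 1.93% of entries, and DESeq2 called 1 of 6 against 2.04%. The quasi-likelihood test called 0 of 6 against 0.689%. No member had groups that did not overlap, 0 of 6, compared with 14.5% of entries. The median log2 FC of the 6 members was -0.04, that of all entries was also -0.04, and 3 of the 6 members had a positive value. The 95% interval of Socs3, 0.74 to 3.99, lay above those of Socs5 and Socs7 and overlapped with those of Socs2, Socs4 and Socs6. The estimates of the other 5 members, -0.60 to 0.34, all lay below its lower end, and no test compared the members with each other.

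**Figure D2:**
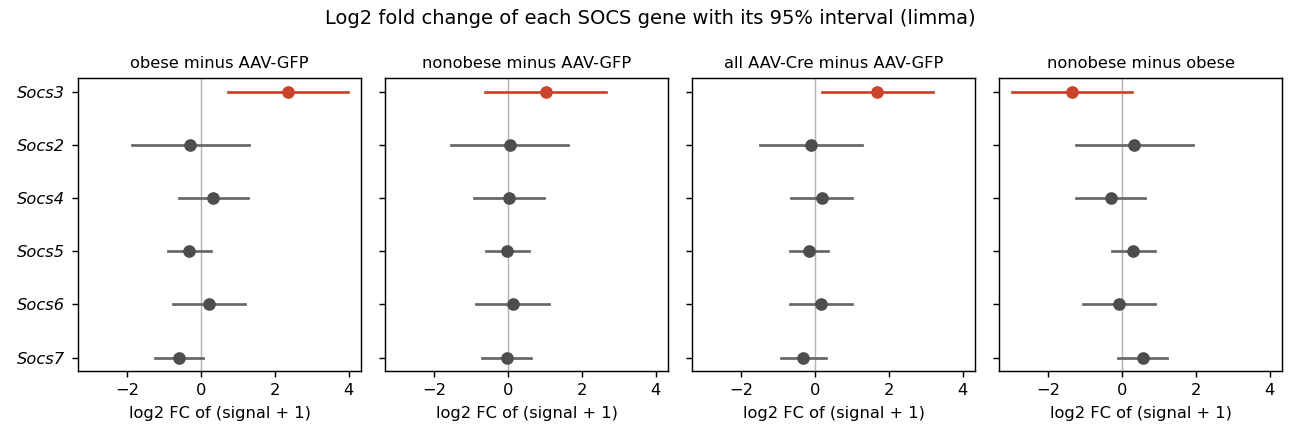
Log2 FC of signal + 1 (horizontal axis) with its 95% interval from limma for each SOCS gene (vertical axis) in 4 comparisons. The Socs3 interval lies above 0 in mice labelled obese against AAV-GFP, at 0.74 to 3.99, and in all AAV-Cre against AAV-GFP, at 0.19 to 3.19, and includes 0 in the other 2 comparisons, whereas the intervals of the other 5 genes include 0 in all 4.

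For mice labelled nonobese against AAV-GFP 0 of 6 members passed an FDR of 0.1 in limma, the quasi-likelihood test and DESeq2, against 0.0148% of entries in each, and 0 of 6 in the likelihood ratio test, against 0.0444%. An unadjusted limma p under 0.05 was found for 0 of 6, against 2.27%, and groups that did not overlap for 0 of 6, against 9.72%. Apart from Socs3, the log2 FC of the members ran from -0.04 to 0.12. Against the mice labelled obese, the same mice had a Socs3 log2 FC of -1.35 (95% interval -2.98 to 0.28, limma FDR = 0.53). The Socs7 log2 FC was 0.56 (limma FDR = 0.521). Again 0 of 6 members were called by limma, against 0.948% of entries, and 0 of 6 by the quasi-likelihood test (1.04%), the likelihood ratio test (2.95%) and DESeq2 (2.88%). At an unadjusted limma p under 0.05 there were 0 of 6, against 11.4%, and 0 of 6 had groups that did not overlap, against 13.3%. With all 6 AAV-Cre mice against the 3 AAV-GFP mice, Socs3 had a log2 FC of 1.69 (95% interval 0.19 to 3.19), an unadjusted limma p of 0.0293 and an FDR of 0.999. The exact permutation test gave p = 0.0952 (2-sided, n = 6 against 3, smallest possible 0.0119). At an unadjusted limma p under 0.05 there was 1 of 6, against 3.14% of entries. No member was called by limma (0 of 6, against 0.0222%), the quasi-likelihood test (0.0148%), the likelihood ratio test (0.0518%) or DESeq2 (0.0667%), and 0 of 6 had groups that did not overlap, against 2.01%. The 3 comparisons with AAV-GFP share the same control mice, so their Socs3 values are not independent of each other.

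Levels were compared between members as signal per kb of exon, which corrects for gene length. Over the 9 libraries Socs5 was highest at 11.3 ± 2.81 (SD, n = 9), followed by Socs7 at 6.85 ± 1.84. Socs5 exceeded Socs7 in 8 of 9 libraries. Next came Socs3 at 2.93 ± 3.46, Socs4 at 2.73 ± 0.77, Socs6 at 1.54 ± 0.41 and Socs2 at 0.823 ± 0.578. Socs3 exceeded Socs4 in only 2 of 9 libraries, replicates 1 and 2 labelled obese, although its mean was higher. In AAV-GFP mice Socs4 was the higher, at 1.98 to 2.80 per kb against 0.265 to 1.38 for Socs3. Socs4 exceeded Socs6 in 8 of 9 and Socs6 exceeded Socs2 in 7 of 9. In AAV-GFP mice Socs3 was the lowest member, at 0.750 ± 0.571 (SD, n = 3) per kb, next to Socs2 at 0.946 ± 0.846. With the label nonobese it stood at 1.75 ± 0.671 and with the label obese at 6.29 ± 4.58, between Socs5 at 9.78 ± 2.86 and Socs7 at 5.29 ± 1.97. Its values there, 1.37 to 10.4 per kb, overlapped with those of Socs5, the lowest of which was 7.57, and with those of Socs7, the lowest of which was 3.06. In the bulk tissue of these captures, fewer cells of a type and less RNA per cell cannot be told apart.

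**Figure D3:**
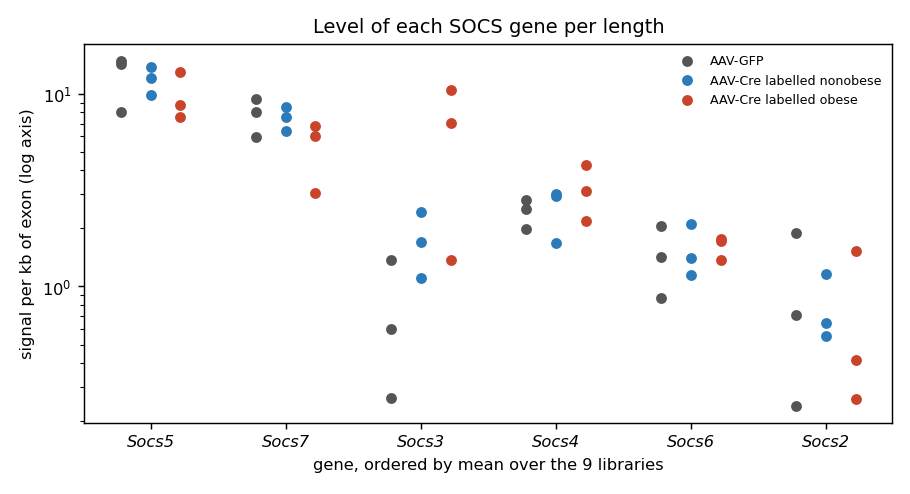
Signal per kb of exon (vertical axis, logarithmic) of each SOCS gene in the 9 libraries, with genes ordered by their mean and points colored by group. Socs5 and Socs7 are the most abundant members, and Socs3 spans the widest range, a 39.4-fold ratio between its highest and lowest library.

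Over the 9 libraries the Pearson r of Socs3 with the other members was 0.28 for Socs2, 0.22 for Socs4, -0.07 for Socs5, 0.13 for Socs6 and -0.55 for Socs7 (Spearman rho 0.35, 0.43, -0.03, 0.17 and -0.35). The highest r of any pair was 0.59, for Socs5 and Socs6, and the next was 0.54, for Socs2 and Socs7. These are descriptions over libraries that share their depth and tissue capture. The summed signal of the 5 members other than Socs3 was 146 to 211 in AAV-GFP mice, 143 to 152 in mice labelled obese and 155 to 190 in mice labelled nonobese, so these ranges overlapped.

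The genes that act upstream and downstream of the SOCS proteins were grouped by role. Over all these lists together, 95 genes were tested and are reported here. In mice labelled obese against AAV-GFP limma called 4 higher and 1 lower, which is 5.26% of them, beside 0.555% of all entries. The lists were drawn up with earlier results of these data known, and Gfap, Vim and Csf1r also serve as cell type markers here. These shares are therefore a description and not a test of the pathway. Leaving out replicate 3 labelled obese left 0 of the 95 called, without replicate 1 labelled obese 1 was called, and without AAV-GFP replicate 1 or AAV-GFP replicate 3 there were 2. Without replicate 2 labelled obese 16 were called. The share of all entries called moved in these fits too. It was 0.0594% without AAV-GFP replicate 1 and 5.27% without replicate 2 labelled obese. With both replicates 1 and 3 labelled obese left out 1 was called. For mice labelled nonobese against AAV-GFP 0 of 95 passed in limma, in the quasi-likelihood and likelihood ratio tests of edgeR and in DESeq2. Of all entries, 0.0444% passed in the likelihood ratio test and 0.0148% in each of the others. An unadjusted limma p under 0.05 was found for 6 of 95, beside 2.27% of all entries.

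None of the 15 listed cytokine ligands, from interleukin 6 to leptin, had an entry (0 of 15). Among 21 receptor chains tested, limma called 1 in mice labelled obese against AAV-GFP, beside 0.555% of all entries. The likelihood ratio test called 2 higher and 1 lower, beside 1.93%. The limma call was Prlr, the prolactin receptor, which signals through JAK2 and STAT5. Its signal fell to 36.4, 33.1 and 12.8 in mice labelled obese from 114, 79.7 and 68.2 in AAV-GFP mice, and was 65.1, 122 and 50.1 in mice labelled nonobese. Its values in mice labelled obese did not overlap with those of either other group, and it was low in all 3 of them. The same held for 14.5% of all entries against AAV-GFP and for 13.3% between the subsets. The Prlr log2 FC was -1.73 (limma FDR = 0.0332). Lepr, the leptin receptor, which Socs3 inhibits, had a log2 FC of 0.45 (limma FDR = 0.868), at 15.8, 9.53 and 35.5 in the group labelled obese and 10.9 to 14.7 in the AAV-GFP group. Il6st, which encodes gp130, had a log2 FC of 0.26 (limma FDR = 0.768), and Lifr, its partner in the receptor for leukemia inhibitory factor, -0.14 (limma FDR = 0.928).

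The 4 JAK kinases had no call, with a log2 FC of 0.23 for Jak1, 0.53 for Jak2, 1.30 for Jak3 and 0.39 for Tyk2. Of 5 STAT genes reported here limma called 0, and 3 had an unadjusted limma p under 0.05. These were Stat2, with a log2 FC of 1.61 (limma FDR = 0.417), Stat6, with 2.01 (limma FDR = 0.325), and Stat3, and the likelihood ratio test called 1 of them, Stat2, beside 9.88% and 1.93% of all entries. Stat5a, one of the factors downstream of the prolactin receptor, had 12.7, 13.6 and 10.1 in AAV-GFP mice, 4.72, 7.72 and 6.74 in mice labelled obese and 0, 1.83 and 2.13 in mice labelled nonobese. Neither AAV-Cre group overlapped with AAV-GFP, as for 14.5% and 9.72% of all entries. The log2 FC was -0.84 (limma FDR = 0.758) and -2.66 (limma FDR = 0.999). In mice labelled nonobese 0 of 5 STAT genes had a positive log2 FC, compared with 48.1% of all entries, and 2 of 5 had an unadjusted limma p under 0.05, compared with 2.27%. Stat3, the factor through which leptin and interleukin 6 induce Socs3, had 178, 87.4 and 204 in mice labelled obese and 97.7, 93.3 and 107 in AAV-GFP mice, with a log2 FC of 0.56 (limma FDR = 0.467). Mice labelled nonobese had 75.8, 60.8 and 61.9 and were lower than mice labelled obese, with a log2 FC of -1.15 (limma FDR = 0.0386).

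Other inhibitors of the pathway include phosphatases, which remove phosphate from JAKs and receptors, and the PIAS proteins, which act on STATs. Of 14 tested, the likelihood ratio test called 2 higher in mice labelled obese, beside 1.93% of all entries. Limma called 1 higher, beside 0.555%, which was Ptpn6, a phosphatase of blood and immune cells. Its signal was 141, 7.04 and 90.8 against 2.11 to 2.49 in AAV-GFP mice, with a log2 FC of 3.83 (limma FDR = 0.0332). Ptpn1, the phosphatase known to act on leptin signaling beside Socs3, had a log2 FC of 0.65 (limma FDR = 0.581). Ptpn11, a phosphatase recruited by gp130, had 0.11 (limma FDR = 0.9) and Pias1 had 0.11 (limma FDR = 0.943). The ubiquitin ligase that the SOCS box recruits had 0 of 10 genes called by limma and by the likelihood ratio test, with 2 of 10 at an unadjusted limma p under 0.05 (9.88% of all entries). Its scaffold Cul5 had a log2 FC of 0.13 and its adaptor genes Elob and Eloc -0.52 and -0.05. Of 16 other genes for SOCS box proteins 0 were called by limma, and 1 of 16 had an unadjusted limma p under 0.05, beside 9.88% of all entries. This gene, Asb4, which is known for its expression in hypothalamic neurons, had a mean signal of 151 in mice labelled obese and 83.9 in controls, a log2 FC of 0.84 (limma FDR = 0.154). It was the 1 gene of this list called by the likelihood ratio test, beside 1.93% of all entries.

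Socs3 is itself a STAT3 target, and 20 other known targets were tested. In mice labelled obese against AAV-GFP limma called 3 higher and 0 lower, beside 0.555% of all entries called. The likelihood ratio test called 4 higher and 0 lower, beside 1.93%. A positive log2 FC was found for 17 of 20, compared with 47.0% of all entries. The 3 called by limma were Gfap, the intermediate filament of astrocytes, Serpina3n, a secreted protease inhibitor of reactive astrocytes, and Irf1, a transcription factor that interferons also induce. Serpina3n reached 211, 168 and 221 in mice labelled obese and 103, 57.4 and 50.9 in AAV-GFP mice, with a log2 FC of 1.55 (limma FDR = 0.0223). It was high in all 3 mice labelled obese, including replicate 2. Gfap had 369, 130 and 640 against 83.0, 60.3 and 10.1 (log2 FC 3.03, limma FDR = 0.0119), also without overlap, as for 14.5% of all entries. Irf1 had 154, 15.4 and 79.7 against 6.98, 2.68 and 10.1 (log2 FC 3.10, limma FDR = 0.0563), with replicate 2 nearest to the controls. Among the other targets, Vim, a filament gene of reactive glia, had a log2 FC of 1.45 (limma FDR = 0.237) and Mcl1, a survival factor, 0.28 (limma FDR = 0.826). Of 10 targets of STAT5, the factor that induces Socs2 and Cish, 0 were called by limma or by the likelihood ratio test. An unadjusted limma p under 0.05 was found for 0 of them, beside 9.88% of all entries.

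Within the mice labelled obese the genes differed in which replicates were high. Socs3 was high in replicates 1 and 2. Stat3, Irf1, Ptpn6 and Gfap were highest in replicates 1 and 3, the same mice in which the interferon, plasma and B cell and microglial markers were high. Other STAT targets varied in their order over replicates 1, 2 and 3. Mcl1, at 70.6, 53.8 and 45.8, and Cdkn1a, a cell cycle inhibitor, at 14.4, 4.09 and 0.929, ran in the order of Socs3. The last Cdkn1a value rests on 4 reads. Fos, at 20.2, 1.82 and 13.2, and Ccnd1, at 36.0, 1.59 and 29.5, were lowest in replicate 2. All were chosen after their values were seen, and how many targets ran in each order was not counted. The 10 microglial and macrophage markers summed to 1053 and 991 in replicates 1 and 3, 214 in replicate 2, and 159 to 210 in the 6 mice of the other groups. The 6 T and NK cell markers with an entry summed to 101 and 70.6 in replicates 1 and 3 and to 12.7 in replicate 2. These markers summed to 2.99 to 5.36 in AAV-GFP mice and 2.35 to 6.65 in mice labelled nonobese. Cd3e, Cd3g, Cd8a and Cd8b1 were at 0 reads in replicate 2, as in AAV-GFP replicate 1 and every mouse labelled nonobese. The 7 astrocyte markers summed to 2566, 2312 and 3073 in mice labelled obese and to 1963 to 2412 in AAV-GFP mice. Some sums lay apart from AAV-GFP in all 3 mice labelled obese, replicate 2 included. Among them were the microglial, T and NK cell and plasma and B cell sums above and the tanycyte, endothelial and oligodendrocyte sums below. Of single entries, 14.5% had groups that did not overlap in this comparison. The 3 tanycyte and ependymal markers with an entry summed to 180, 82.6 and 120 against 37.7 to 61.1. Of these 3, Vim is also listed as a STAT3 target. Col23a1 overlapped with AAV-GFP, at 19.8, 28.8 and 12.5 against 17.5, 19.1 and 4.47. The 8 endothelial and mural markers summed to 243, 223 and 294 against 156 to 213. They overlapped with mice labelled nonobese, at 159 to 224. The 6 oligodendrocyte markers were lower, at 1080, 835 and 1055 against 1179 to 1782. With replicates 1 and 3 left out, Socs3 in the remaining mouse had a signal of 20.4 against 0.766 to 3.99 in AAV-GFP mice. The Socs3 log2 FC from it was 2.89 (limma FDR = 0.292), where the single mouse is assumed to vary like the other groups. In replicate 3, whose interferon and microglial sums were near those of replicate 1, it was 3.95. The part of these cells in the pathway calls was not tested.

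**Figure D4:**
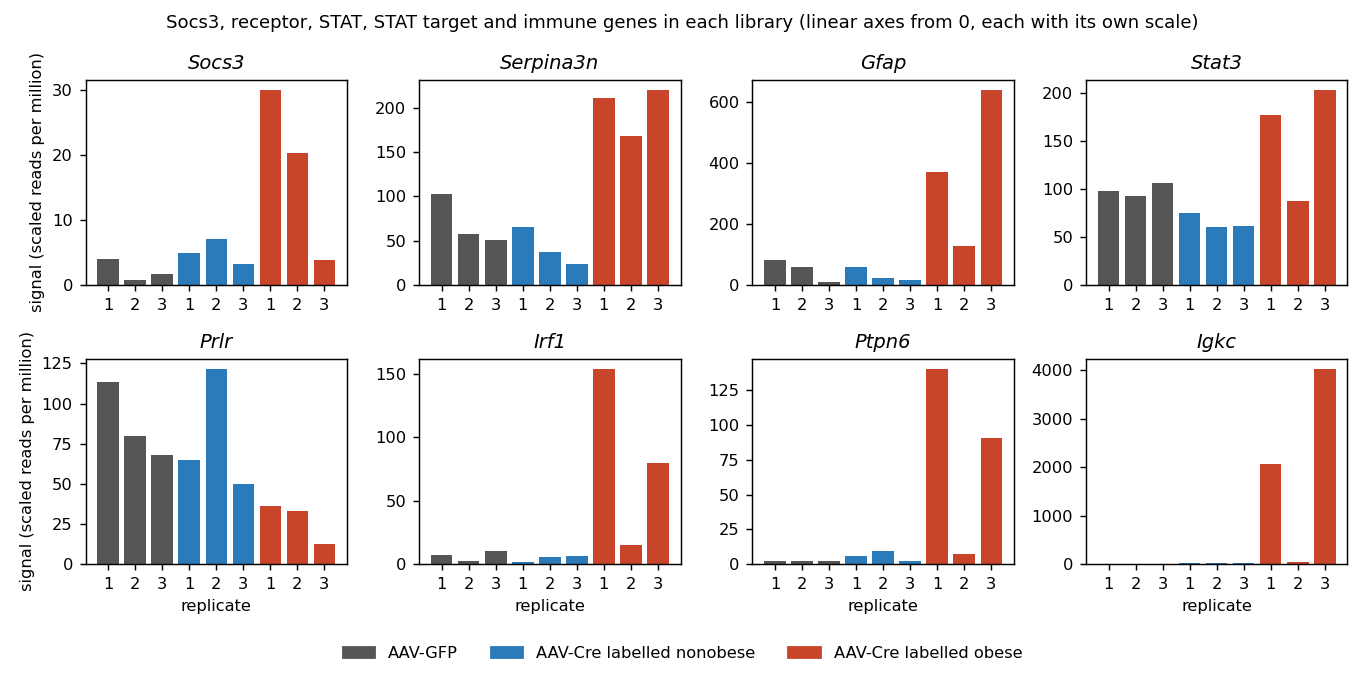
Signal (vertical axes, scaled reads, linear from 0, each panel with its own scale) of Socs3 and of 7 other genes in each library (horizontal axis, replicate number), colored by group. Socs3 is high in replicates 1 and 2 labelled obese, Serpina3n in all 3, and Irf1, Ptpn6 and the immunoglobulin gene Igkc in replicates 1 and 3, and Prlr is lower in all 3 than in any other library.

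When mice labelled nonobese were compared with mice labelled obese, 8 of the 95 pathway genes were called by limma, 7 lower and 1 higher. This is 8.42%, beside 0.948% of all entries, a description only, as the lists were chosen with earlier results of these data known. Lower were Csf1r and Csf2ra, receptor chains of microglia and macrophages, Stat3, Gfap, Serpina3n, Vim and Irf1. Prlr was higher, with a log2 FC of 1.52 (limma FDR = 0.0569). The log2 FC was -1.48 for Csf1r, -1.31 for Csf2ra, -3.39 for Gfap, -2.31 for Serpina3n, -1.85 for Vim and -3.57 for Irf1 (limma FDR from 0.00109 for Serpina3n to 0.0785 for Vim). Leaving out replicate 1 or replicate 3 labelled obese left 1 call each, leaving out replicate 2 gave 23, and leaving out replicate 2 or 3 labelled nonobese gave 3 and 5. The share of all entries called moved as well, to 0.0149% without replicate 1 labelled obese and 6.72% without replicate 2 labelled obese. No SOCS member was among the 8.

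The entries whose pattern was most like that of Socs3 were ranked by Pearson r of log2 of signal + 1 over the 9 libraries, among 13506 entries. The highest were Luc7l3 (r = 0.98), Brd7 (0.92), Cpa6 (0.92), Ccdc116 (0.91) and Supt16 (0.90). Among the lowest were Wdr6 (r = -0.91) and Dnal1 (-0.91). Luc7l3 is a splicing-related gene. Its signal was 506, 474 and 388 in mice labelled obese and 401, 341 and 375 in AAV-GFP mice, a log2 FC of 0.29, beside 0.89 for Cpa6 and 1.77 for Ccdc116. These entries are extremes of 13506 over only 9 libraries, and how high r would run by chance was not tested. None of these 7 was called by limma in any of the 4 comparisons, where 0.0148% to 0.948% of all entries were called. None was a STAT target or another member of the lists above, which hold few of the 13506 entries. Ccdc116 rested on few reads, with 8, 1 and 3 in AAV-GFP mice and 36, 46 and 5 in mice labelled obese. Mice labelled nonobese had 4, 6 and 0 reads of it. Ccdc116 overlaps Ydjc on the opposite strand, and its counts may include reads of that gene.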

How the data were processed

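RNA from laser-captured hypothalamic regions of 9 mice was amplified and sequenced by the authors with a stranded low-input kit. Single-end reads were aligned by the authors to GRCm38 (TopHat2 2.0.11), and the submitters' processing notes also name HTSeq, edgeR and limma. Whether counting used strand is not given in the sources used here. The values the authors deposited are a signal, that is, gene reads over a scaled library size, brought to a common scale. All of them (100%) were whole multiples of the value of 1 read within 0.01 read, so reads were recovered. The lowest total of an entry was 50 reads.

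Symbols and positions came from GENCODE M21 (GRCm38), and promoter windows from RefSeq (GRCm38.p6), which held 2 of the 6 members. The 13506 entries that reached a signal of 1 in 3 or more libraries were tested with limma 3.58.1 (trend) on log2(signal + 1) in 1 fit of 3 groups, or of 2 for all AAV-Cre against AAV-GFP. Calls needed a Benjamini-Hochberg FDR under 0.1 over all entries. Alternatives were edgeR 4.0.16 and DESeq2 1.42.0 on recovered reads, pseudocounts of 0.1 and 5, no filter or a filter at signal 5, no variance trend, median centring, a replicate block, only 2 groups, and leaving out each mouse. Python 3.11.15 and scipy 1.17.1 gave the exact tests. The tests were run on simulated counts first.

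Members and gene lists were chosen with earlier results of these data known. Named were the members, genes of each list with a call or among its most abundant, and the 5 entries most like Socs3 and 2 of those least like it. Some genes are not reported here and were left out of these lists. Other genes, such as Lepr, Ptpn1, Vim and Asb4, were named for their role or a call by another test after their values were seen. Same-numbered mice were not treated as pairs. Depth limits low genes: Socs3 had 4 to 16 reads in AAV-GFP mice.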

Additional observations from a re-analysis of the deposited data

Results flagged for a closer look

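Socs7 in replicate 2 labelled obese, at a signal of 22.2, stood below the other 5 AAV-Cre mice, which lay between 43.6 and 61.7. Its gap to the nearest of them on log2 of signal + 1 was 0.658 of the range of the 6 mice, above Dixon's 95% critical value for 6 values. Of 7 sets of values examined in this way, chance flags about 1 in 20. Socs3 in the same mouse was 20.4, and its 37704 Cre reads were the highest of the 9 libraries.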

How the results depend on the processing

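Socs3 in mice labelled obese against AAV-GFP kept its direction under every alternative run. In the alternatives that kept all mice, its log2 FC was 1.51 to 3.11 and its FDR 0.0312 to 0.425. It passed the threshold in the edgeR likelihood ratio test (3.07) and in DESeq2 (3.11), where 1 of 6 members was called. Leaving out each mouse gave a log2 FC of 1.83 to 3.16 with a limma FDR of 0.190 to 0.601, so none of these fits passed. Leaving out replicates 1 and 3 labelled obese gave a log2 FC of 2.89. The share of entries called in that comparison (0.555%) was 0.252% with a pseudocount of 0.1, 1.06% with 5, 0.037% without the variance trend, 0.37% with only 2 groups, 1.93% in the likelihood ratio test, 2.04% in DESeq2, 0.33% without replicates 1 and 3 labelled obese (chosen after seeing the data), and 0.0594% (without AAV-GFP replicate 1) to 5.27% (without replicate 2 labelled obese) when 1 mouse was left out. For mice labelled nonobese against AAV-GFP (0.0148%) it was 0.0074% with a pseudocount of 0.1, 0.0444% in the likelihood ratio test, 0.0225% without replicates 1 and 3 labelled obese and 0.00742% to 0.0223% without 1 mouse. For mice labelled nonobese against labelled obese (0.948%) it was 0.518% and 1.58% with pseudocounts of 0.1 and 5, 0.111% without trend, 0.474% with only 2 groups, 2.95% in the likelihood ratio test, 2.88% in DESeq2, 0.54% without replicates 1 and 3, and 0.0149% (without replicate 1 labelled obese) to 6.72% (without replicate 2) without 1 mouse. For all AAV-Cre (0.0222%) it was 0.0444% as the average of subsets, 0.0518% in the likelihood ratio test, 0.0667% in DESeq2 and 0.00742% to 0.0297% without 1 mouse. The cause of these differences was not tested.

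Members near 0 changed sign. Socs2 in mice labelled nonobese was -0.036 with a pseudocount of 5 and -0.27 in each of both edgeR tests and DESeq2. Without replicates 1 and 3 labelled obese, Socs4 and Socs5 were -0.14 and 0.13 (labelled obese against AAV-GFP), 0.16 and -0.14 (labelled nonobese against obese), and -0.016 and 0.020 (all AAV-Cre). Leaving out 1 mouse gave, in mice labelled obese, -0.92 to 0.35 for Socs2 and -0.091 to 0.49 for Socs6. In mice labelled nonobese it gave -0.58 to 0.68 for Socs2, -0.11 to 0.28 for Socs4, -0.30 to 0.14 for Socs5, -0.18 to 0.40 for Socs6 and -0.22 to 0.10 for Socs7. Between the subsets it gave -0.11 to 0.97 for Socs2 and -0.32 to 0.092 for Socs6, and for all AAV-Cre -0.74 to 0.52 and -0.14 to 0.44.

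Same-numbered mice deviated with r of -0.02 to 0.09 in 9 pairs. An r over all entries cannot exclude a match by captured region, and the paper calls its AAV-GFP controls region-matched. The summed signal of the hypothalamus markers was lowest in replicate 3 of each group. It was 200 in AAV-GFP, 334 in the group labelled obese and 322 in the group labelled nonobese. Whether the numbers pair the mice was not settled. A replicate block gave 1.48% of entries called in mice labelled obese against AAV-GFP, where 0.555% were called without it. Between the subsets it gave 2.01%, against 0.948% without it, and no SOCS member was called. Of 9 pairs, 5 correlated best with their own number.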
